A study of Mus musculus with 4 samples.

Results

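Interleukins and their receptors were followed as a gene family in EGFP-positive and Tomato-positive cells from the trachea and the stomach of Tas2r143-reporter mice. Members were all protein-coding genes whose symbol starts with Il and a digit, together with Tslp and its receptor chain Crlf2. This gave 84 genes of the 48587 measured. Of these, 39 were counted as ligands and 42 as receptor chains. The other 3 are Il1rn, Il18bp and Il4i1, which encode the IL-1 receptor antagonist, the IL-18 binding protein and an amino acid oxidase. Decoy receptors, Il22ra2 among them, were counted as receptor chains, and all genes of the IL-36 group, with Il1f5, as ligands.

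The mice were adult and carried Tas2r143-CreERT2, a BAC transgene in which the Tas2r143 promoter drives a tamoxifen-inducible Cre recombinase, and the Cre reporter Rosa26flox-mT-stop-flox-mG, on a C57BL/6 background. All of them, including the source of the Tomato-positive cells, received tamoxifen for 5 days and were analyzed 5 days later. Recombined cells and their progeny switch from the red protein Tomato to EGFP, so that EGFP records promoter activity at the time of tamoxifen and not at the time of the sort. An exact age was not found in the labels or methods, and the cells came from 1 of the transgenic lines. EGFP-positive cells were sorted without an epithelial gate, whereas Tomato-positive cells also had to carry the epithelial surface protein EpCAM. Cells of 3 mice were pooled for each sort and tissue, which left 4 groups of 1 library and no replicate, so that none of the differences between single libraries has a replicate check.

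The values are normalized counts, reads per gene divided by a factor for each library. They summed to between 9.979 and 15.43 M per library, and the spacing of low values put the reads behind them at 6.2 M in the EGFP library of the trachea and 17.3 to 18.9 M in the others. A floor of 3 reads, taken as the limit of detection, corresponds to 4.83 normalized counts in the EGFP library of the trachea and to 2.36 to 2.45 in the others. In the labels of every sample, the title names 1 tissue and the tissue field the other, and libraries are called here by their titles. Cyp2f2, a gene of airway club cells, stood at 8937 (EGFP) and 337775 (Tomato) normalized counts under the title trachea and at 0 and 69 under the title stomach, whereas Gkn1, a gene of gastric pit cells, stood at 10 and 2 under the former and at 55128 and 468388 under the latter. Of 3 genes listed for gastric chief cells, Lipf stood the other way, at 924 and 53408 under trachea and at 0 and 0 under stomach. Pgc was at 10 and 2 under trachea and at 39704 and 992416 under stomach, and Gif at 0 and 0 and at 6994 and 89704. Both sorts held epithelial RNA, with all 4 of 4 epithelial markers at 1450 normalized counts or more in every library. The 8 tuft cell markers summed to 89367 and 131999 normalized counts in the EGFP libraries of trachea and stomach and to 2280 and 7083 in the Tomato libraries. Only Gfi1b of these was at 0 in the trachea.

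Interleukins are secreted proteins by which epithelial, stromal and blood cells address each other. They act through receptors built from several chains, many of which are shared: a private chain binds the ligand, and a common chain such as gp130 (Il6st), the common gamma chain (Il2rg) or IL-17RA (Il17ra) couples it to signaling. A cell that lacks 1 chain of a pair often cannot respond through that receptor, though this does not hold for every receptor. Ligands and all chains of their receptors therefore have to be read together. Tuft cells, chemosensory cells of the epithelium, are known as a source of IL-25, which acts on innate lymphoid cells, and IL-13 made by those cells acts back on the epithelium through IL-4Rα and IL-13Rα1.

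Most of the family was not detected or very low. At 50 or more normalized counts, the minimum used here for any call, were 36 of the 84 members in at least 1 library, 16 were above 0 but under it and 32 were listed at 0 in all 4 libraries. In single libraries, 14 members reached the minimum in the EGFP cells of the trachea, 18 in the Tomato cells of the trachea, 14 in gastric EGFP and 24 in gastric Tomato cells. Il13ra1 had the highest normalized count of any member, at 8919 in the Tomato library of the trachea.

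**Figure D1:**
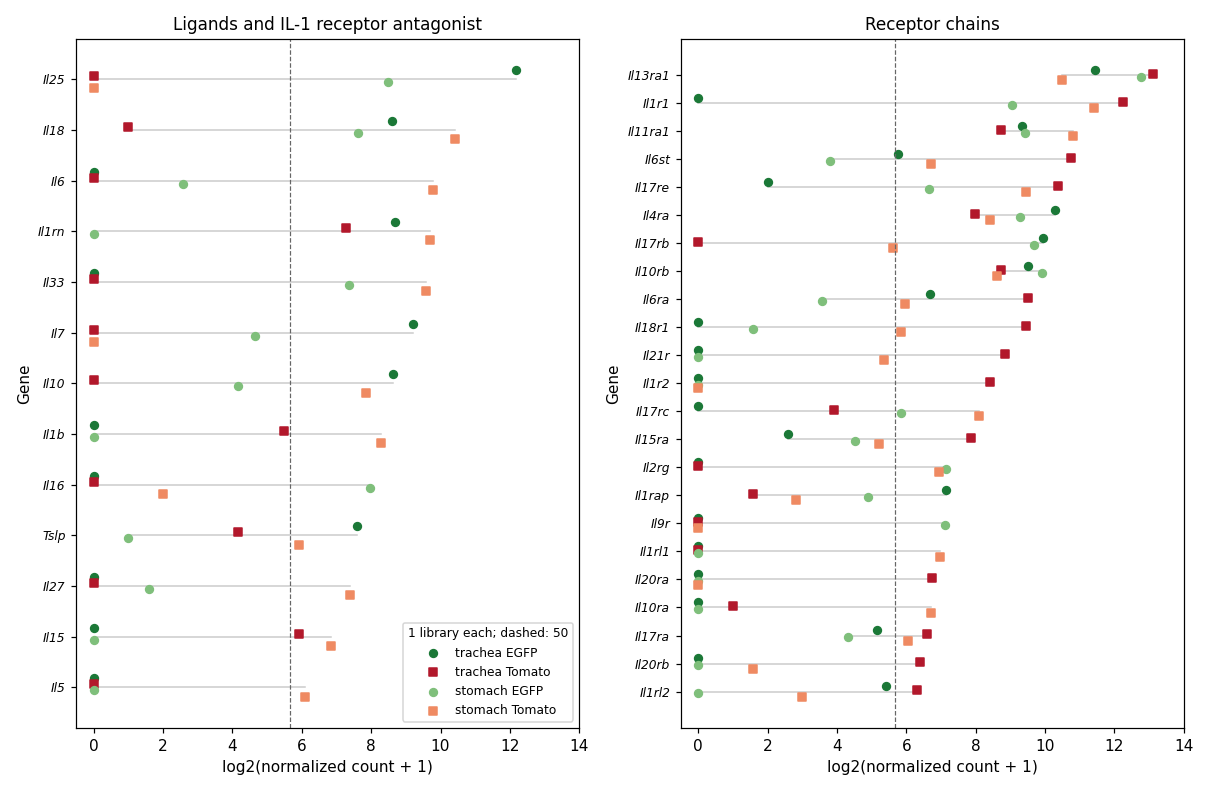
Levels of the 36 members at 50 or more normalized counts in at least 1 library, as log2(normalized count + 1) on the horizontal axis, with 1 point per library (circles EGFP, squares Tomato) and the minimum of 50 as a dashed line. Il25 and Il17rb stand to the right in both EGFP libraries, and Il1r1 and Il17re in both Tomato libraries.

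A member was called higher or lower in EGFP-positive cells when log2((EGFP + 1)/(Tomato + 1)) reached 2 or -2 and the higher library reached the minimum. In the trachea 25 members could be called, of which 8 were higher, 11 were lower and 6 were neither. Of all 10523 genes at the minimum there, 25.2% were higher and 32.4% were lower, against 32% and 44% of the members. The background depends on the scaling, since with equal library totals the calls over all genes moved from 2651 higher and 3411 lower to 3284 higher and 3027 lower, while those of the members stayed at 8 and 11. In the stomach 28 members could be called, of which 5 were higher (17.9%), 18 were lower (64.3%) and 5 were neither. The shares of all 11094 genes were 14.8% and 22.4%. The median log2(EGFP/Tomato) of the members was -1.43 in the trachea and -2.6 in the stomach, beside -0.32 and -0.15 for all genes, and it was -1.46 and -2.66 when libraries at 0 were set to the floor. The lower share in the stomach was thus well above that of all genes, while in the trachea both shares were somewhat above theirs as deposited. No test is attached to these counts, since each group is 1 library. In bulk libraries like these, fewer cells of a type and less RNA per cell cannot be told apart.

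Members that could be called were split into ligands and receptor chains. In the trachea 5 ligands were higher in EGFP-positive cells (Il25, Il7, Il10, Il18 and Tslp) and 1 was lower (Il15). Of the receptor chains, 3 were higher (Il17rb, Il4ra and Il1rap), 10 were lower and 5 were neither. The normalized counts of all ligands summed to 6183 in the EGFP library of the trachea and to 142 in its Tomato library, and Il25 made up 74.5% of the former. In the stomach the order of the sums was the other way, with 1017 in EGFP-positive and 3994 in Tomato-positive cells, where Il18 (34.4%) and Il6 (21.9%) led. There, 2 ligands were higher (Il25 and Il16), 9 were lower and 0 were neither. Of the receptor chains, 3 were higher (Il17rb, Il13ra1 and Il9r), 8 were lower and 5 were neither.

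Il25 and Il17rb were the only members called higher in the EGFP-positive cells of both tissues. Il25 encodes IL-25, the alarm cytokine of tuft cells, and Il17rb the receptor chain that binds it. Il25 (chromosome 14, 54932695 to 54935837, plus strand, 3 exons) was at 4608 (EGFP) and 0 (Tomato) normalized counts in the trachea and at 359 and 0 in the stomach. Values are given in this order, EGFP before Tomato, wherever a tissue has a pair of them. Il17rb (chromosome 14, 29996135 to 30008896, minus strand) was at 985 and 0 in the trachea and at 819 and 48 in the stomach. The ligand and its own receptor chain were thus high in the same sort and at 48 normalized counts or less in the other. Il17rb was at least 406-fold higher in the EGFP library of the trachea, measured against the floor, and 17.1-fold higher in that of the stomach (95% interval 13.1 to 22.5). Intervals, here and in the following, are exact binomial on estimated reads, folds given as at least a value are divisions by the floor of 3 reads, and both cover counting error only. In contrast to Il25, which was 12.8-fold higher in tracheal than in gastric EGFP cells (11.6 to 14.2), Il17rb was at nearly the same level in both, with a ratio of 1.2 (1.09 to 1.33).

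No other receptor of the IL-17 family was called higher in EGFP-positive cells. Il17re, the chain for IL-17C, was at 3 and 1334 normalized counts in the trachea and at 99 and 704 in the stomach, and thus lower in the EGFP-positive cells of both tissues, 7.09-fold in the stomach (5.88 to 8.62). Il17rc, which with IL-17RA binds IL-17A and IL-17F, was at 0 and 14 in the trachea and at 57 and 272 in the stomach, a difference of 4.76-fold (3.66 to 6.17). Il17ra, the chain that all these receptors share, was low in every library, at 35 and 96 in the trachea and 19 and 65 in the stomach. It was called neither in both tissues, with Tomato higher by 2.74-fold (1.72 to 4.5) and 3.42-fold (2.17 to 5.71). Per kb of exon, which allows genes to be set side by side, Il17ra was at 4.04 normalized counts in tracheal EGFP cells, against 266 for Il17rb and 4330 for Il25. Of the ligands, Il17f was at 20 normalized counts in the Tomato library of the trachea and at 0 elsewhere, and Il17a, Il17b, Il17c and Il17d were listed at 0 throughout. Il17rd, an orphan member of this receptor family, was at 24 in the Tomato library of the stomach and at 2 or less elsewhere.

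The chains of the type II IL-4 receptor, through which epithelial cells sense IL-4 and IL-13, were present in all 4 libraries. Il4ra encodes the chain that both cytokines share and Il13ra1 the chain that completes the receptor. Il4ra (chromosome 7, 125552120 to 125579474, plus strand) was at 1259 and 253 normalized counts in the trachea and at 623 and 340 in the stomach. It was thus higher in EGFP-positive cells of the trachea by 4.98-fold (4.36 to 5.69) and called neither in the stomach, where the ratio was 1.83 (1.62 to 2.07). Il13ra1 (chromosome X, 36112110 to 36171259, plus strand) was at 2753 and 8919 in the trachea and at 7037 and 1431 in the stomach. EGFP-positive cells had less than Tomato-positive cells in the trachea, by 3.24-fold (3.08 to 3.41) and thus short of a call, and 4.92-fold more in the stomach (4.67 to 5.18), which was called. Per kb of exon, Il13ra1 exceeded Il4ra in every library, with 742 against 210 normalized counts in tracheal EGFP cells and 1900 against 104 in gastric EGFP cells. The ligands were low. Il4 was at 2, 0, 2 and 10 normalized counts in the order trachea EGFP, trachea Tomato, stomach EGFP and stomach Tomato, Il13 was at 2 in the Tomato library of the stomach alone. Il5, a type 2 cytokine with another receptor, was at 67 in that library and at 0 in the others, and was called lower in gastric EGFP cells. Il13ra2, the decoy receptor of IL-13, was listed at 0 throughout.

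Promoter sequences are printed for 4 members on which the comparisons turn: Il17rb, called higher in EGFP cells of both tissues, the IL-4 receptor pair Il13ra1 and Il4ra, and Il18, which went in opposite directions in the tissues. Each window of 300 bases runs across a RefSeq transcript start, 50 bases from its end, on GRCm38.p6, read 5′ to 3′ along the gene. Capitals mark the octamer ATGCAAAT on either strand (ATTTGCAT on the other), the element that POU factors such as the tuft cell factor Pou2f3 bind.
Il17rb, chr14:30008847-30009146, minus strand: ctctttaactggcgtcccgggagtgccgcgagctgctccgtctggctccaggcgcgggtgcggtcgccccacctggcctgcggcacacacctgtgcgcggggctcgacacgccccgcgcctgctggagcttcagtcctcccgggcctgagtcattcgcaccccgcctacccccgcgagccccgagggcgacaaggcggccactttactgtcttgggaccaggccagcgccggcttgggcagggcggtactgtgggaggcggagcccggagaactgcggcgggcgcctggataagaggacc
Il13ra1, chrX:36111858-36112157, plus strand: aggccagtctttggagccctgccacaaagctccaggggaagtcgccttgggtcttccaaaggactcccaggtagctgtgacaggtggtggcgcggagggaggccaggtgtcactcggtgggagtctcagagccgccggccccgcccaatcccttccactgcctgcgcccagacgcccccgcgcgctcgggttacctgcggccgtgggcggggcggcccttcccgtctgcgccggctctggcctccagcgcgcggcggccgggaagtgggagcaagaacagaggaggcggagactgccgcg
Il4ra, chr7:125552021-125552320, plus strand: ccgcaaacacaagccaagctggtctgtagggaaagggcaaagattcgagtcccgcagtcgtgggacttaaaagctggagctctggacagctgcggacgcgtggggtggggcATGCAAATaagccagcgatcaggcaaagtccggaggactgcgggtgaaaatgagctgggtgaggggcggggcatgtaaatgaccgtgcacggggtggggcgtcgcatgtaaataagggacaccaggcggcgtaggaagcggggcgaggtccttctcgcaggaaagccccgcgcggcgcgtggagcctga
Il18, chr9:50554450-50554749, plus strand: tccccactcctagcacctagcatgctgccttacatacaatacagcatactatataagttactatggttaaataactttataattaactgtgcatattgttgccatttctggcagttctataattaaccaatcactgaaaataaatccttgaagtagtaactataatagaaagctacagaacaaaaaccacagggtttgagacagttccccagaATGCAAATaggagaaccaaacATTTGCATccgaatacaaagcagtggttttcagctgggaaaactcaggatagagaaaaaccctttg
The windows of Il17rb and Il13ra1 were rich in G and C (72% and 71%, with 32 and 28 CpG dinucleotides, beside a median of 52.7% and 7 over all 32851 windows) and held no octamer. The window of Il4ra held 1 octamer, 139 bases before the RefSeq start used. That start lay 151 bases downstream of the annotated gene start, so this octamer lies inside the annotated gene. The window of Il18, with 36.7% G and C and 1 CpG, held 2 octamers, 1 on each strand, the first 37 bases before the RefSeq start. For Il18 that start lay 127 bases upstream of the annotated gene start. RefSeq windows were matched for 66 of the 84 members, and 5 of these (7.58%) held the octamer: Il4ra, Il18, Il1rn, Il33 and Il1rl1. Of the 27025 genes with a window among those used, 1.97% held it. Of these 5, Il4ra and Il18 were called higher in tracheal EGFP cells, Il1rn was called neither and Il33 and Il1rl1 were at 0 there. In the stomach 4 of them were called lower in EGFP cells and Il4ra was called neither. Windows of Il25, Il7, Il10 and Tslp were not analysed here.

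**Figure D2:**
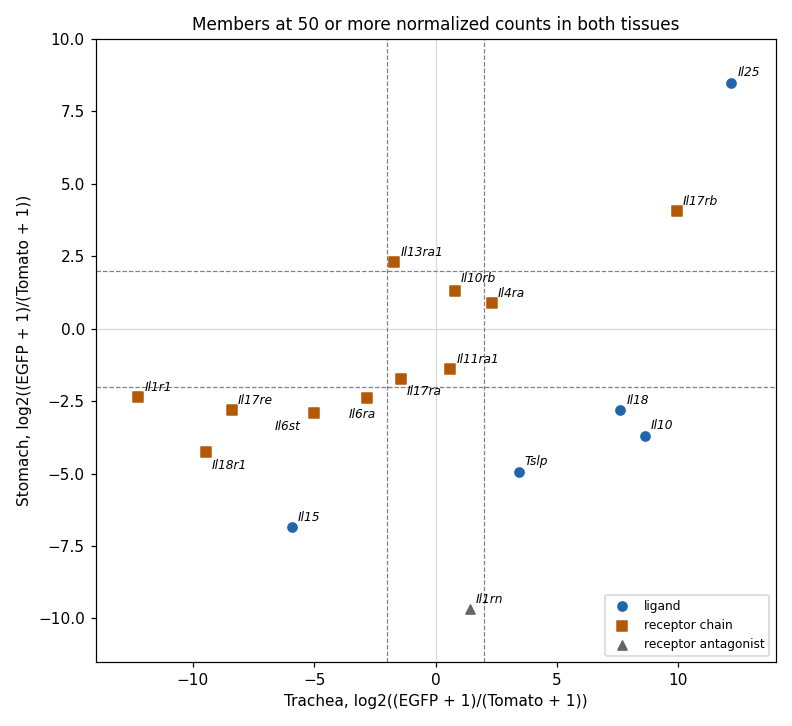
log2((EGFP + 1)/(Tomato + 1)) in the trachea (horizontal) and the stomach (vertical) for the 17 members at 50 or more normalized counts in both tissues, 1 library per sort and tissue, with dashed lines at 2 and -2. Il25 and Il17rb lie at the upper right, 6 members lie at the lower left beyond both lines, and Il10, Il18 and Tslp lie at the lower right, higher in tracheal and lower in gastric EGFP-positive cells.

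Of the 17 members that reached the minimum in both tissues, 11 had the same sign of log2(EGFP/Tomato) in both and 6 had opposite signs. Il10, Il18 and Tslp passed the rule in both, higher in the trachea and lower in the stomach. Il18 encodes IL-18, an IL-1 family cytokine that epithelia store as a precursor. It was at 390 and 1 normalized counts in the trachea and at 194 and 1373 in the stomach, a ratio of 390 in the trachea (85.6 to 19100, resting on about 1 read in the Tomato library) and 7.09-fold less in gastric EGFP cells (6.17 to 8.13). The EGFP libraries differed little in Il18, by 2.01-fold (1.67 to 2.41), whereas the Tomato libraries stood 1370-fold apart (304 to 67100), so the change of sign lay mainly with the Tomato-positive cells. Il10, the gene of an anti-inflammatory cytokine, was at 394 and 0 in the trachea and at 17 and 231 in the stomach. Both sorts differed between tissues here, with EGFP 23.2-fold higher in the trachea (14.7 to 37.1). Tslp, an epithelial cytokine of type 2 immunity, was at 192 and 17 in the trachea and at 1 and 60 in the stomach. Il1rn was at 414 and 154 in the trachea, called neither with a ratio of 2.69 (2.22 to 3.26), and at 0 and 821 in the stomach.

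Of the IL-1 family receptors, only the shared accessory chain Il1rap was called higher in EGFP-positive cells of either tissue. Il1r1, the signaling receptor of IL-1 (chromosome 1, 40225080 to 40317257, plus strand), was at 0 and 4826 normalized counts in the trachea and at 530 and 2712 in the stomach. That is at least 999-fold lower in tracheal and 5.13-fold lower in gastric EGFP cells (4.72 to 5.56). Il18r1, the ligand-binding chain for IL-18, was at 0 and 702 in the trachea and at 2 and 57 in the stomach, lower in both. Il1r2, the IL-1 decoy receptor, was at 341 in the Tomato library of the trachea and at 0 in the 3 others. Il1rl1, which encodes the IL-33 receptor ST2, was found at 125 in the Tomato library of the stomach alone, and Il1rl2, the receptor for IL-36 cytokines, was at 42 and 78 in the trachea and at 0 and 7 in the stomach. Il1rap was at 140 and 2 in the trachea, a ratio of 70 (23.3 to 726), and at 29 and 6 in the stomach, under the minimum. Receptor and accessory chain of the IL-1 receptor were thus in different sorts of the trachea.

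The IL-1 family ligands were few. Il33, the nuclear alarm cytokine, was at 0 in both tracheal libraries and at 163 and 769 in the stomach, 4.72-fold less in EGFP cells (4.07 to 5.52). Il1b was at 0 and 44 in the trachea and at 0 and 310 in the stomach. Both were thus higher in gastric Tomato than in gastric EGFP cells, where Il33 was still above the minimum. Il1b was not detected in either EGFP library. Il1a was at 6, 0, 0 and 11 in the order trachea EGFP, trachea Tomato, stomach EGFP and stomach Tomato. Il18rap, without which IL-18 does not signal, and the genes of the IL-36 group and IL-38 (Il1f5, Il1f6, Il1f8, Il1f9 and Il1f10) were listed at 0 in all 4 libraries, and the IL-18 binding protein gene Il18bp was at 33 and 40 in the stomach and at 0 in the trachea.

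Il7 and Tslp, epithelial cytokines whose receptors share the chain Il7r, both stood high in tracheal EGFP cells. Il7, which sustains lymphocytes, was at 589 and 0 normalized counts in the trachea and at 24 and 0 in the stomach, so it was at 0 in both Tomato libraries. It was at least 243-fold higher in the EGFP library of the trachea than in its Tomato library, and 24.5-fold higher there than in gastric EGFP cells (16.7 to 36.1). The chains Il7r and Crlf2 were low in all libraries. Il2rg, the other chain of the IL-7 receptor, was at 0 and 0 in the trachea and at 140 and 122 in the stomach. Il7r was at 3 in the Tomato library of the stomach and at 0 elsewhere, and Crlf2, the TSLP-binding chain, was at 0, 5, 3 and 5 normalized counts, that is at 6 reads or fewer in any library. Neither sort therefore showed both chains of either receptor above the minimum.

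Il15, which supports lymphocytes of epithelia, and its presenting chain Il15ra were on the Tomato side. Il15 was at 0 and 60 in the trachea and at 0 and 113 in the stomach. Il15ra was at 5 and 231 in the trachea, 46.3-fold less in EGFP cells (16.2 to 234), and at 22 and 36 in the stomach. The signaling chain Il2rb was listed at 0 throughout.

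Several receptor chains that are known from blood cells were found in 1 or 2 libraries. Il21r was at 0 and 455 in the trachea and at 0 and 40 in the stomach, and Il10ra at 0 and 1 and at 0 and 105. Both were at 0 in the EGFP libraries. Il2rg, the common gamma chain, was not detected in the trachea and was at 140 and 122 in the stomach, a ratio of 1.15 (0.915 to 1.43). Il9r, which needs Il2rg to signal, was at 138 in gastric EGFP cells and at 0 in the 3 other libraries. Il16, a chemoattractant for CD4-positive cells, was at 248 and 3 in the stomach and at 0 in the trachea, a ratio of 82.7 (29.4 to 281). Gastric EGFP cells were thus the only library in which Il9r was detected and Il16 exceeded the minimum.

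Markers of blood cells were listed beside these genes. Of the 7 B and plasma cell markers, 5 reached the minimum in the EGFP library of the stomach, where the list summed to 685389 normalized counts, against 36932 in the Tomato library. Ms4a1 was at 0 in both gastric libraries, while Igkc alone was at 530119 in the EGFP library. In the trachea the list stood at 19332 and 964. The myeloid list ran the other way, with sums of 852 and 50083 in the trachea and 83 and 14625 in the stomach, and 6 of its 8 markers at the minimum in each Tomato library. Adgre1 and Itgam were at 0 in both tracheal libraries. Mast cell markers summed to 0 and 369 in the trachea and to 1 and 4750 in the stomach, with 5 of 7 at the minimum in the latter. Fibroblast markers summed to 478 and 25749 in the trachea and to 254 and 26105 in the stomach. T cell and ILC markers were at 98 and 1584 in the trachea, where Trac was at 0 and 1459 and Cd3g at 98 and 36, and at 3 and 79 in the stomach, and Cd3d, Cd3e and Cd247 were at 0 in all 4 libraries. The part of such cells in the values of Il9r, Il16, Il2rg, Il21r, Il10ra, Il1b, Il6, Il1rl1 and Il5 was not tested.

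**Figure D3:**
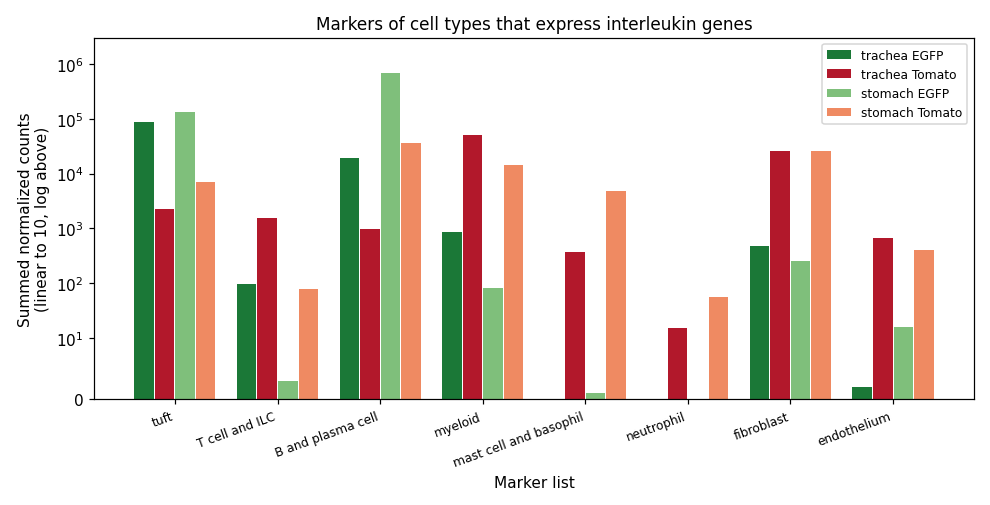
Summed normalized counts of 8 marker lists in the 4 libraries (bars, 1 library each, vertical axis linear to 10 and logarithmic above). Tuft and B and plasma cell markers are higher in the EGFP library of each tissue, and myeloid, mast cell, fibroblast and endothelial markers in the Tomato library.

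Il6st and Il6ra were called lower in EGFP-positive cells of both tissues, while Il11ra1 was not. Il6st, which encodes the shared chain gp130, was at 53 and 1733 normalized counts in the trachea and at 13 and 104 in the stomach, 32.7-fold (23.1 to 47.6) and 8-fold (4.65 to 13.7) less in EGFP cells. Il6ra, the IL-6-binding chain, was at 101 and 722 and at 11 and 62, 7.14-fold (5.49 to 9.35) and 5.65-fold (3.16 to 10.8) less. Both chains therefore fell on the same side in both tissues and were more abundant in the trachea than in the stomach in either sort. Il11ra1, the IL-11 receptor, was called neither in both tissues, at 642 and 421 in the trachea and at 688 and 1800 in the stomach. Its near-identical copy Il11ra2 was listed at 0, and since reads that align to several places had been left out, Il11ra1 may be under-counted. Il6 itself was at 0 in both tracheal libraries and at 5 and 874 in the stomach, 175-fold less in EGFP cells (84.7 to 505). Il27, a subunit of IL-27, was at 0 in the trachea and at 2 and 168 in the stomach. Ebi3, the gene of the other subunit, was at 0 and 37 in the trachea and at 4 and 108 in the stomach. The IL-27 receptor chain Il27ra was at 1 normalized count in gastric EGFP cells and at 0 elsewhere, and Il11 was at 1 in the Tomato library of the stomach.

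In the IL-10 family, the common chain Il10rb was found in all 4 libraries and the private chains in fewer. Il10rb was at 733 and 422 in the trachea and at 957 and 392 in the stomach, called neither, with ratios of 1.74 (1.53 to 1.97) and 2.44 (2.2 to 2.72). Il20ra and Il20rb, which together bind IL-19, IL-20 and IL-24, were at 107 and 84 in the Tomato library of the trachea and at 2 or less in the 3 others. The IL-22 receptor chain Il22ra1, its decoy Il22ra2 and the ligands Il19, Il20, Il22 and Il24 were listed at 0 throughout.

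**Figure D4:**
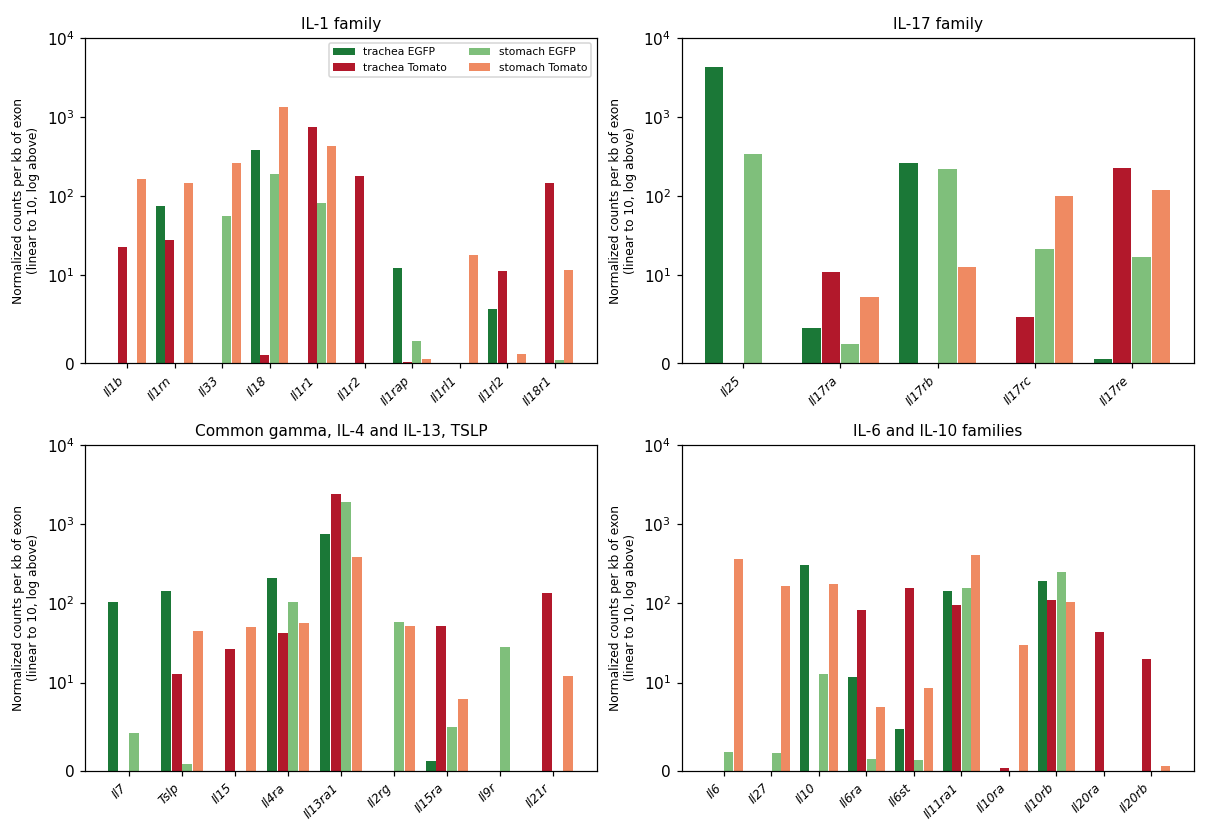
Normalized counts per kb of exon (vertical axis, linear to 10 and logarithmic above) of ligands and receptor chains in 4 panels by family, with 1 bar per library. Il13ra1 and Il4ra have bars in all 4 libraries, Il25 in both EGFP libraries alone, and Il1r2, Il20ra and Il21r in Tomato libraries alone.

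Ligands and receptors were then set against each other for 28 pairs of a ligand group and its receptor chains. Of these, 24 had a receptor chain and 12 a ligand at the minimum in some library, and 10 had both. A single chain was enough for this count, and ligand and chain could be in different libraries or tissues. Il7, for instance, counted through Il2rg, with Il7 at the minimum in tracheal EGFP cells alone and Il2rg in the gastric libraries alone. Il5 and Il27 counted through Csf2rb and Il6st, with Il5ra and Il27ra under the minimum. Of 24 receptors defined by all their signaling chains, only the type II IL-4 receptor (Il4ra and Il13ra1) had every chain at the minimum in all 4 libraries. The IL-6 and IL-11 receptors (Il6ra or Il11ra1 with Il6st) did so in 3 libraries, all but the EGFP library of the stomach. The receptors for IL-17C and IL-20 did so in the Tomato library of the trachea, and those for IL-17A, IL-17C and IL-10 in the Tomato library of the stomach. The type I IL-4 receptor (Il4ra and Il2rg) did so in both gastric libraries, and the IL-9 receptor (Il9r and Il2rg) in gastric EGFP cells alone. In all, 3 of the 24 receptors were complete in each EGFP library, 5 in tracheal and 7 in gastric Tomato cells. At the floor of 3 reads in place of the minimum these numbers were 5, 10, 6 and 14 in the order trachea EGFP, stomach EGFP, trachea Tomato and stomach Tomato. Complete means here that all chains were found in the same bulk library. Whether the chains lay in the same cells was not tested, and the libraries also held markers of other cell types.

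Read as pairs, the ligands of tracheal EGFP cells met few complete receptors in either sort. For IL-25, Il17rb and Il17ra were both above the floor in the EGFP library (985 and 35 normalized counts) and not in the Tomato library, where Il17rb was at 0. For IL-18 the Tomato library had Il18r1 (702) without Il18rap. For IL-10 both tracheal libraries had Il10rb, with Il10ra at 1 or less. In the stomach the Tomato library had ligand and all receptor chains at the minimum for IL-6 (Il6 874, Il6ra 62, Il6st 104) and for IL-10 (Il10 231, Il10ra 105, Il10rb 392), and gastric EGFP cells had neither Il10ra nor more than 13 normalized counts of Il6st. For IL-33 the ligand was in both gastric libraries and Il1rl1 in the Tomato library, where Il1rap was at 6. For IL-16, the receptor Cd4 was at 1 or less in every library. Surface protein and secretion were not measured here.

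Genes that carry interleukin signals into the cell were listed as well. Of 31 such genes that are not members, 24 reached the minimum in the trachea, where 6 were higher in EGFP cells, 7 were lower and 11 were neither, near the 25.2% and 32.4% of all genes. In the stomach, 26 reached it, and 3 were higher, 10 were lower and 13 were neither, beside 14.8% and 22.4% of all genes. Ptpn6, the phosphatase SHP-1 that restrains cytokine receptor signaling, was called higher in both tissues, at 13609 and 172 normalized counts in the trachea and 21888 and 808 in the stomach, and Cish, a feedback inhibitor induced by STAT5, was called lower in both, at 8 and 1412 and at 17 and 297. Jak1, the kinase used by most of these receptors, was called neither in both, at 2198 and 3467 and at 3879 and 2544. Stat6, which transmits IL-4 and IL-13 signals, was at 242 and 825 in the trachea and at 631 and 484 in the stomach, also neither. Jak3, the partner of the common gamma chain, was at 221 and 2 in the trachea although Il2rg was at 0 there. Traf6, the ubiquitin ligase below the IL-1 and IL-17 receptors, was higher in the trachea, at 246 and 0, and lower in the stomach, at 73 and 416. Csf2rb2, the IL-3-specific beta chain of the mouse, was at 535 and 0 in the trachea and at 0 and 107 in the stomach, whereas its close relative Csf2rb was lower in both, at 0 and 70 and at 0 and 860. Il3ra was at 18 in gastric EGFP cells and at 0 elsewhere, and Il5ra was listed at 0.

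The 2 EGFP libraries were compared with each other as well, where tissue, cell dissociation and library cannot be told apart, and these comparisons share libraries with those above. Between them 21 members could be called, 7 higher in the trachea and 7 higher in the stomach (33.3% each), beside 19.8% and 28.3% of all 10337 genes. Higher in tracheal EGFP cells were Il25, Il7, Il10, Tslp, Il1rn, Il6ra and Il1rap, that is 4 ligands, the IL-1 antagonist and 2 receptor chains. Higher in gastric EGFP cells were Il1r1, Il17rc, Il17re, Il9r, Il2rg, Il16 and Il33. Il17rb, Il4ra, Il13ra1, Il10rb, Il11ra1 and Il18 were called neither. Il6st fell just short of a call with a log2 ratio of 1.95. Between the Tomato libraries 30 members could be called, of which 10 were higher in the trachea and 13 in the stomach (33.3% and 43.3%), beside 20.3% and 27.9% of all 11338 genes. All 10 that were higher in the trachea encode receptor chains, from Il13ra1, Il6st, Il6ra, Il18r1, Il1r2, Il1rl2, Il15ra and Il21r to Il20ra and Il20rb. The 13 that were higher in the stomach were 7 ligands, Il1rn and the receptor chains Il10ra, Il11ra1, Il17rc, Il1rl1 and Il2rg. The ligands Il15 and Tslp were called neither. The widest gaps among ligands were those of Il6, Il18 and Il33, which were at 0 to 1 normalized counts in the trachea and at 769 to 1373 in the stomach.

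Neighbours on a chromosome did not always share a sort. Within 500 kb of another member lay 37 of the 84, in 13 clusters. Of the 6 IL-1 receptor genes on chromosome 1 (40074079 to 40551705), none was called higher in EGFP cells, and Il1r1, Il1r2 and Il18r1 were called lower in the trachea. On chromosome 7, Il4ra and Il21r lie within 81.5 kb and were called in opposite directions in the trachea. On chromosome 1 (130882074 to 131024974), Il10 was at 394 normalized counts in tracheal EGFP cells while Il19, Il20 and Il24 beside it were at 0. Il17re and Il17rc on chromosome 6, within 24.7 kb, were both lower in gastric EGFP cells. Some exon bases are shared with other annotated genes, among them 3.8% of Il17rb, 9.51% of Il4ra, 14.9% of Il10rb and 17.4% of Il16. The share was larger for Il5 (27.1%), Il2rg (30.5%), Il12rb2 (40%) and Il4i1 (86.3%). Reads that overlapped several genes had been left out by the authors, so these members may be under-counted.

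Finally, the tissues were taken as the only repeats of the sort in limma, with tissue as a block and p-values adjusted by the Benjamini-Hochberg method over 13023 genes. Among the 36 members tested, Il25 was higher in EGFP cells, with a log2 difference of 10.33 ± 2.79 (SE, adjusted p = 0.0137), and Il1r1 was lower, by a log2 difference of -7.29 ± 1.47 (adjusted p = 0.000136). All genes called by limma were 0.929% higher and 1.41% lower. For Il17rb the difference of 7.005 ± 2.2 had an adjusted p of 0.0592 and for Il17re that of -5.6 ± 1.85 one of 0.0824. With 1 residual degree of freedom limma took each standard error from the trend over all genes alone, so that the unequal size of the Il1r1 difference in trachea (-12.24) and stomach (-2.35) did not enter it. Without that moderation no member and no other gene passed (0 of 13020 tested), the adjusted p of Il25 was 0.78, and 1 member, Il15, had an unadjusted p under 0.05.

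The 16 members above 0 but under the minimum were Il18bp, Il12rb2, Il12rb1, Il17rd, Il17f, Il3ra, Il1a, Il4, Crlf2, Il7r, Il2, Il12a, Il13, Il1rapl1, Il11 and Il27ra. Of these, Il12rb2 was at 35 in gastric EGFP cells alone and Il12rb1 at 5 and 31 in the stomach. Besides those named, Il2ra, Il3, Il9, Il12b, Il21, Il23a, Il23r, Il31, Il31ra, Il34, Il1rapl2 and Il4i1 were listed at 0. With 1 read worth an estimated 0.786 to 1.61 normalized counts, a listed 0 stands for no counted read. Expression under the limit of detection is not excluded by it.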

How the data were processed

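RNA-seq was performed on 4 libraries of sorted cells, 1 for each of 2 sorts and 2 tissues. Quality trimming (Reaper), alignment to mm10 (GRCm38) with STAR 2.4.0a and counting over exons with featureCounts 1.4.5-p1 were done by the authors, without reads from multiple loci or from overlapping genes. The deposited score is a normalized and rounded count, scaled per library by the authors, and no source used here states how the size factors were made. Rounded values do not return whole reads for every gene, so no count model was run. The worth of 1 read was estimated from the whole numbers that occur among low values, tested on simulated data. Ratios have 95% exact binomial intervals on estimated reads. Of symbols on several lines, the line with the highest sum was kept. Members and lists were chosen with earlier results of these data known. Called members, members of pairs with both sides at the minimum and those near the call are named with values, and the others are accounted for. Exon lengths and positions are from GENCODE M21 (GRCm38) and promoters from RefSeq (GRCm38.p6). limma 3.58.1 was run in R 4.3.3, and all else in Python 3.11.15 with scipy 1.17.1. Alternatives varied the pseudocount of 1, the minimum, the fold, the scaling and the repeated symbols.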

Additional observations from a re-analysis of the deposited data

Results flagged for a closer look

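In 5 members log2(EGFP/Tomato) had opposite signs in trachea and stomach and was at least 1 in size in both. The difference between the tissues was 12.3 for Il10, 11.1 for Il1rn, 10.4 for Il18, 8.35 for Tslp and -3.99 for Il13ra1, with positive values where the ratio was larger in the trachea. These differences were not tested, since each tissue holds 1 pair of libraries. For Il10, Il18 and Tslp the trachea was called higher and the stomach lower, whereas Il1rn was called in the stomach alone, at 0 against 821 normalized counts, and Il13ra1 was called in the stomach alone, at 7037 against 1431. Il18 in the trachea and Tslp in the stomach rest on about 1 read in the lower library.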

How the results depend on the processing

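Calls of members in trachea and stomach changed little with pseudocount and scaling. Of these, Il6ra alone lost its call in the stomach, with a pseudocount of 10 (-1.78). Equal library totals moved log2 ratios by 0.575 in the trachea, 0.179 in the stomach and 0.45 between EGFP libraries, and a total without abundant secretory genes moved those between Tomato libraries by -0.337. Equal totals left the counts in trachea and stomach at 8 higher and 11 lower and at 5 and 18. Between EGFP libraries they moved members from 7 higher and 7 lower to 9 and 7. All genes moved there from 2048 higher and 2923 lower to 2587 and 2644. With a minimum of 500 normalized counts, 9 members were called in the trachea (4 higher, 5 lower), 8 in the stomach (2 and 6), 3 between EGFP libraries (2 and 1) and 9 between Tomato libraries (4 and 5). Without a minimum, 9 members were higher in gastric EGFP cells, 22 differed between EGFP libraries (13 lower in the trachea) and 21 were lower in the tracheal than in the gastric Tomato library. At 8-fold, 15 members were called in the stomach, 11 of them lower. limma called 1 member with a minimum of 500, 0 without a tissue term (2 higher and 2 lower at an unadjusted p under 0.05) and 0 without moderation (0 and 1). The last of these and the total without secretory genes were chosen after seeing the data, and the cause of these moves was not tested beyond the number of genes or degrees of freedom that each leaves. Leaving out a tissue leaves limma no residual degree of freedom, so it gives a difference without a test. The tissue block in limma is the only pairing the labels allow, since they give no replicate numbers. Depth limits the EGFP library of the trachea most, where 1 read is worth 1.61 normalized counts.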
